A study of Arabis alpina with 12 samples.

Results

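SPL3, SPL4, SPL5 and SPL10 of the perennial crucifer Arabis alpina were followed through 12 poly(A) RNA libraries from shoot apices and V3 buds, a bud position that the sources used here do not define further. They are the genes that the authors' deposited lists pair with the Arabidopsis orthologues AT2G33810 (SPL3, Aa_G438780h1), AT1G53160 (SPL4, Aa_G381970h1), AT3G15270 (SPL5, Aa_G1050h1) and AT1G27370 (SPL10, Aa_G61880h1). They are 4 of the 34220 genes in the count table. They were thus selected on measured values of these libraries: all 4 stood in the deposited list of 270 genes that were higher in Aatoe2_IL V3 buds, a list chosen by fold and adjusted p-value, and none was in an apex list. Each had 1 entry under its identifier in the count table, and reads shared with related genes under other identifiers were not checked. Each passed the filter on low counts, which left 19520 genes. The other members of a list of 17 SPL genes had no name in the files and were not analysed here.

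The libraries came from dissected main shoot apices of Aatoe2_IL, dissected apices of wild type, dissected V3 buds of Aatoe2_IL and dissected V3 buds of wild type, with 3 libraries in each of these 4 groups. Both genotypes carried the accession Pajares, and all plants were grown for 8 weeks in long days and then kept for 8 weeks of vernalization, a cold treatment, in short days, so that the groups differ in genotype and tissue and share age and cold. Aatoe2_IL is the single line sampled for AaTOE2, an APETALA2-like transcription factor, and the sources used here do not give its lesion. An effect of AaTOE2 and any other difference between this line and wild type cannot be told apart. The level of AaTOE2 itself was not analysed here, since the files give no name to its identifier. Replicates were numbered, but nothing says that they came from separate plants, and the p-values below measure the spread between these libraries, which may in part be technical.

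SPL genes encode transcription factors that bind DNA through the SQUAMOSA promoter binding protein domain. In Arabidopsis many of them, these 4 included, are targets of the microRNA miR156, which declines as the plant ages, and the SPL proteins that then accumulate promote the change to flowering. SPL3, SPL4 and SPL5 encode small proteins that act at the shoot apex on genes of floral meristem identity, such as AP1, FUL and LFY, and SPL10 belongs with SPL2 and SPL11 to a group that also acts in leaf and shoot development. APETALA2-like proteins of the TOE group repress flowering in Arabidopsis and are themselves targets of miR172, which acts downstream of SPL proteins.

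Each library held between 9411616 and 12309478 reads in genes. A level is given in CPM, the read count scaled by the TMM method to a common library total, and 1 CPM corresponded to between 9.15 and 12.8 reads. SPL4, SPL5 and SPL10 were read from at least 16 counts in every library, whereas SPL3 had between 3 and 61. The replicates of a group differed by more than sampling noise, with a chi-square of counts per degree of freedom between 3.29 and 17.6.

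SPL5 was higher on average in Aatoe2_IL than in wild type in both tissues and higher in apices than in buds. Aatoe2_IL apices held 241, 347 and 302 CPM of it in replicates 1, 2 and 3, against 204, 120 and 175 CPM in wild-type apices. In V3 buds it had 77.3, 142 and 93.3 CPM in Aatoe2_IL, against 19.0, 16.7 and 12 CPM in wild type. The genotypes overlapped in neither tissue, a pattern with Aatoe2_IL higher that 11.4% of all genes shared in buds and 9.95% in apices. The bud contrast chose this gene. The highest Aatoe2_IL bud library, replicate 2, lay above the lowest wild-type apex library, also replicate 2. From high to low the groups stood in the order Aatoe2_IL apex (297 ± 52.9 CPM, SD, n = 3), wild-type apex (167 ± 42.7), Aatoe2_IL buds (104 ± 33.5) and wild-type buds (15.9 ± 3.54), and the neighbours wild-type apex and Aatoe2_IL buds overlapped.

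SPL10 followed the same order of groups over a smaller range. Its level was 64.8, 98.4 and 86.6 CPM in Aatoe2_IL apices, against 52.1, 51.3 and 59.3 CPM in wild-type apices. In V3 buds it was 38.6, 45.4 and 37.9 CPM in Aatoe2_IL, against 24.6, 17.9 and 18.7 CPM in wild type. No 2 of the 4 groups overlapped for SPL10, and Aatoe2_IL apex replicate 1 stood closest to the wild-type apices. The share of all genes with such a separation was not counted, and the bud contrast chose this gene.

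SPL4 differed mainly between tissues. It had 44.8, 46.8 and 45.3 CPM in Aatoe2_IL apices, against 44.3, 29.0 and 42.8 CPM in wild-type apices. Wild-type apex replicate 2 was the low library there, and the other two wild-type apices lay just under the Aatoe2_IL range. In V3 buds SPL4 had 6.24, 9.95 and 7.65 CPM in Aatoe2_IL, against 4.84, 1.98 and 1.60 CPM in wild type. Wild-type bud replicate 1 stood well above replicates 2 and 3. The genotypes did not overlap in buds, as in 11.4% of all genes with Aatoe2_IL higher, and the bud contrast chose this gene.

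SPL3 had a different profile, with its highest levels in Aatoe2_IL buds. It had 2.35, 2.04 and 1.90 CPM in Aatoe2_IL apices, against 1.40, 1.21 and 1.10 CPM in wild-type apices. In V3 buds it had 6.24, 3.13 and 6.67 CPM in Aatoe2_IL, against 1.11, 0.625 and 0.300 CPM in wild type. Every Aatoe2_IL bud library was above every library of the other 3 groups, a pattern whose share among all genes was not counted and which contains the bud contrast that chose SPL3. Wild-type buds and wild-type apices touched, since the highest wild-type bud library (1.11 CPM) was just above the lowest wild-type apex library (1.10 CPM). The wild-type bud values rest on 20 counts in all (exact 95% Poisson interval 12.2 to 30.9), against 152 in Aatoe2_IL buds (129 to 178), and these intervals cover counting error only.

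**Figure D1:**
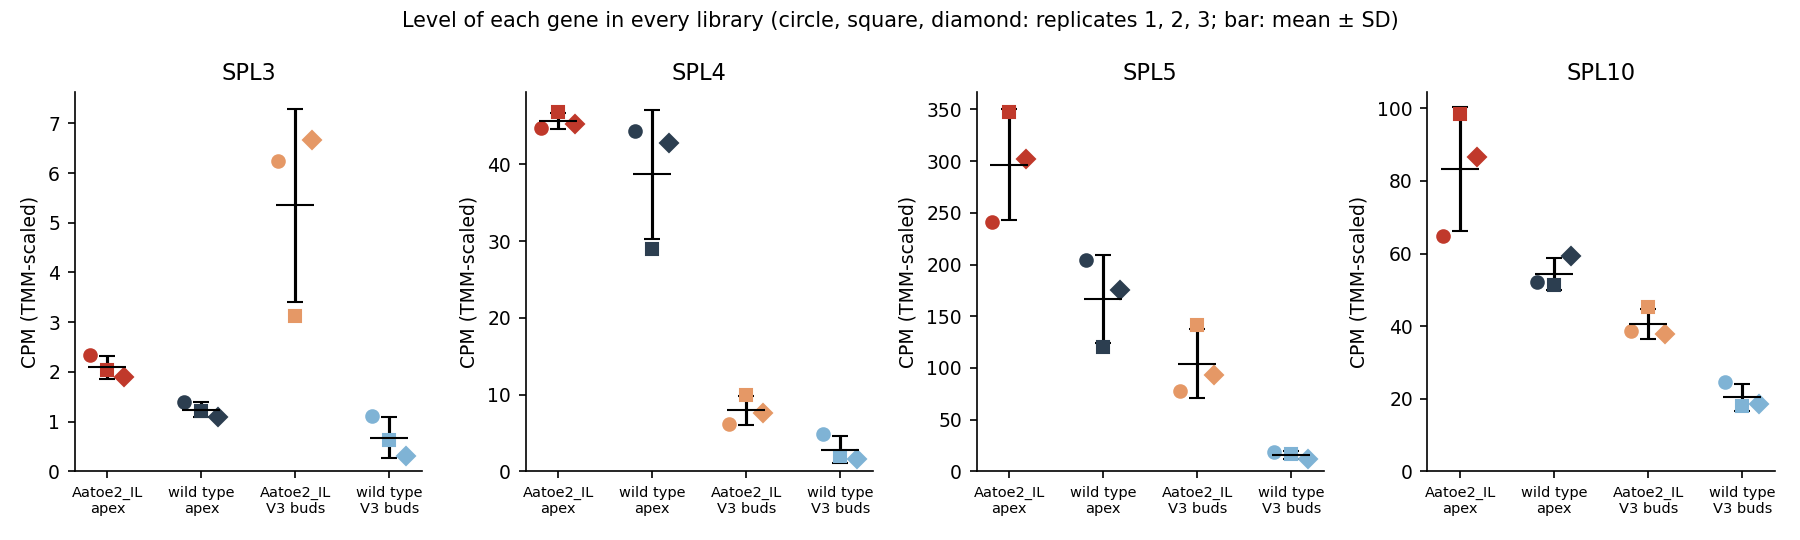
Level of each SPL gene in CPM (y axis, linear from 0, a separate scale for each gene) in the 12 libraries by group. Circles, squares and diamonds are replicates 1, 2 and 3, and bars are the mean ± SD of 3 libraries; SPL4, SPL5 and SPL10 are highest in Aatoe2_IL apices, and SPL3 is highest in Aatoe2_IL buds at 5.34 ± 1.93 CPM.

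V3 buds were sampled to study AaTOE2 in the development of axillary branches. The contrast between Aatoe2_IL and wild-type buds chose these genes, so its values are a description with no test. The fitted log2 fold changes were 2.95 for SPL3 (SE 0.41), 2.71 for SPL5 (SE 0.26), 1.5 for SPL4 (SE 0.32) and 0.99 for SPL10 (SE 0.16), with a median of 2.11 against -0.0095 over all 19520 genes. In linear terms mean CPM was 7.88-fold higher in Aatoe2_IL buds for SPL3, 6.56-fold for SPL5, 2.83-fold for SPL4 and 1.99-fold for SPL10. The authors' deposited table gave folds of 7.94, 6.59, 2.85 and 2 in the same order, with SPL10 directly at the limit of 2 that the table header states. It ranked SPL5 at place 5 of the 270 genes by adjusted p-value, SPL3 at 89, SPL10 at 129 and SPL4 at 172. By edgeR's test all 4 were past an adjusted p of 0.05 and higher, as were 2.98% of all genes tested, from which nothing can be read because the lists were made from the same contrast. The same holds for the absence of overlap, with every Aatoe2_IL bud library above every wild-type one, which 11.4% of all genes shared. The log2 fold change of SPL4 was 2.15 without wild-type bud replicate 1.

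Markers of other tissues that have a name in the files also differed in the bud contrast. Their names come from the deposited list of genes with higher levels in Aatoe2_IL buds, so their direction there came with the naming, and the other members of their lists were not analysed here. LHCB1.3, a light-harvesting protein gene of green leaf tissue and the 1 of 4 genes of the leaf list with a name in the files, had between 3030 and 4640 CPM in Aatoe2_IL buds and between 1690 and 1820 CPM in wild-type buds. SEOR1 and SEOR2, which encode proteins of the phloem sieve elements and are 2 of 3 genes of the phloem list, summed to between 24.1 and 37.1 CPM in Aatoe2_IL buds and between 8.61 and 17.0 CPM in wild-type buds. In apices LHCB1.3 had between 2220 and 3000 CPM in Aatoe2_IL and between 1460 and 2210 CPM in wild type, while the SEOR1 and SEOR2 sum ran the other way, between 36.0 and 58.3 CPM in Aatoe2_IL and between 73.8 and 74.7 CPM in wild type. None of these named markers was at 0 in any library, and their part in the SPL values was not tested. In whole buds and apices, fewer cells of a type and less RNA per cell cannot be told apart. None of the 5 shoot meristem genes in the marker list had a name in the files, so the labelled tissues were not checked against them.

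Apices were sampled to study AaTOE2 in flowering during vernalization, and none of the 4 genes stood in a list made from this contrast, although they were chosen with earlier results of these libraries known. Buds and apices paired in part by replicate number, so this contrast is not fully separate from the bud contrast that chose the genes. All 4 SPL genes were higher on average in Aatoe2_IL apices than in wild-type apices, SPL4 by a difference that was gone once the share of reads outside genes entered the fit. By edgeR's quasi-likelihood test, adjusted by Benjamini-Hochberg over all genes, 0 of 4 were past 0.05, in a contrast where 1.1% of all genes passed. SPL10 had a log2 fold change of 0.62 (SE 0.15, unadjusted p = 0.000803, edgeR adjusted p = 0.0594) and SPL5 one of 0.83 (SE 0.22, unadjusted p = 0.00218, edgeR adjusted p = 0.092). SPL3 stood at 0.75 (SE 0.39, edgeR adjusted p = 0.355) and SPL4 at 0.24 (SE 0.22, edgeR adjusted p = 0.623). The 95% intervals of the log2 fold changes were 0.30 to 0.93 for SPL10, 0.35 to 1.31 for SPL5, -0.072 to 1.58 for SPL3 and -0.22 to 0.70 for SPL4. At an unadjusted p under 0.05 there were 2 of 4, and 7.77% of all genes tested were past that level and higher.

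The DESeq2 Wald test, run as an alternative, placed SPL5 and SPL10 past the threshold in the apex (DESeq2 adjusted p = 0.014 and 0.00924), where 1.25% of all genes were called as higher by that test. Both also passed edgeR's test without Aatoe2_IL apex replicate 1 (edgeR adjusted p = 0.0403 for SPL5 and 0.00786 for SPL10), the library with the lowest SPL5 and SPL10 levels of its group. Over all alternatives the adjusted p ranged from 0.014 to 0.384 for SPL5 and from 0.00673 to 0.313 for SPL10, so that the call for these genes depends on the setting. For SPL3 it ranged from 0.223 to 0.677 and for SPL4 from 0.398 to 0.988.

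The apex differences were estimated as smaller than those in buds for each gene. The genes were chosen from a list that required a bud fold of 2, and none was in an apex list. A larger value in buds therefore came in part with the choice of the genes. In mean CPM, Aatoe2_IL apices were 1.78-fold higher than wild-type apices for SPL5, 1.69-fold for SPL3, 1.53-fold for SPL10 and 1.18-fold for SPL4, all under the fold of 2 that the deposited apex lists required. Every Aatoe2_IL apex library was above every wild-type apex library for all 4 genes, a pattern that 9.95% of all genes tested shared. For SPL4 the margin was from 44.8 CPM in the lowest Aatoe2_IL library to 44.3 CPM in the highest wild-type library. The median log2 fold change of the 4 genes was 0.69 in apices, against -0.0042 over all genes, and 1.62%, 2.01%, 3.15% and 16.4% of all genes had a higher log2 fold change than SPL5, SPL3, SPL10 and SPL4 in that order.

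**Figure D2:**
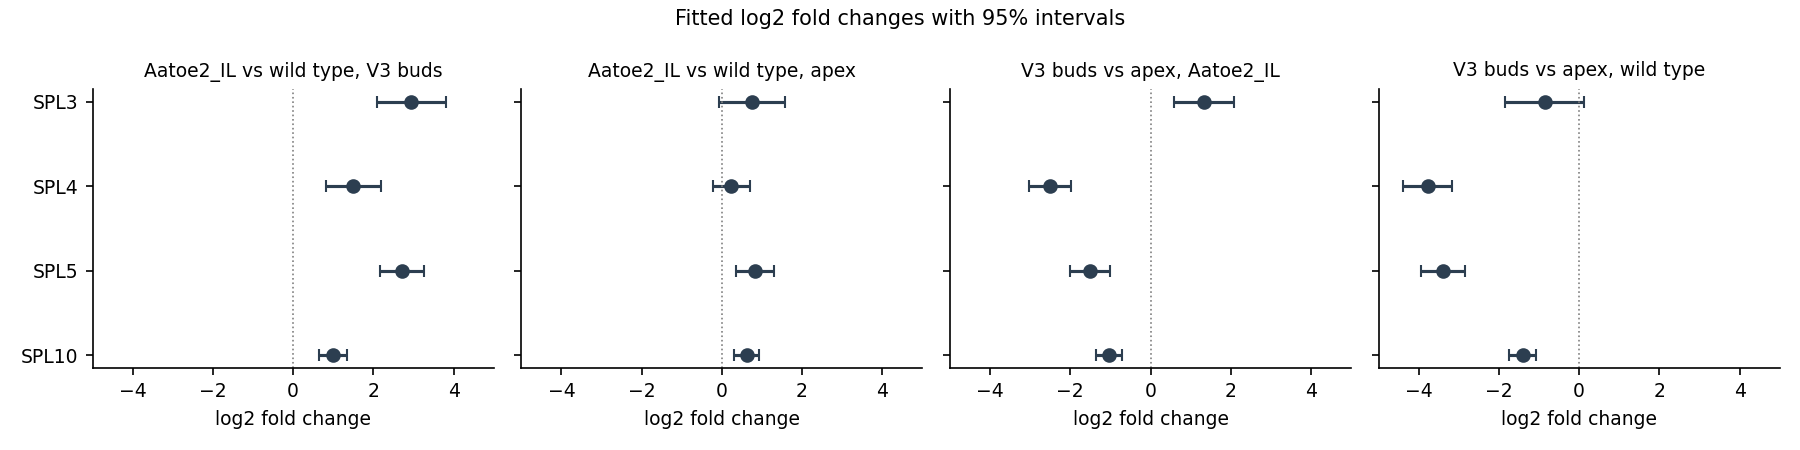
Fitted log2 fold change (x axis) of each SPL gene in 4 contrasts, with 95% intervals as horizontal bars. Genotype contrasts are Aatoe2_IL over wild type and tissue contrasts are V3 buds over apex. The bud libraries took part in choosing the genes, so 3 of the 4 panels are a description, and only the apex genotype panel goes with a test, in which the values run from 0.24 for SPL4 to 0.83 for SPL5.

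The difference between the genotype effects in buds and in apices contains the bud contrast and is given with no test. On the log2 scale the effect was estimated as larger in buds by 2.20 for SPL3 (SE 0.58), 1.88 for SPL5 (SE 0.34), 1.27 for SPL4 (SE 0.39) and 0.38 for SPL10 (SE 0.22). The 95% interval for SPL10 ran from -0.083 to 0.84. Without wild-type bud replicate 1 the value was 1.92 for SPL4 and 2.74 for SPL3.

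**Figure D3:**
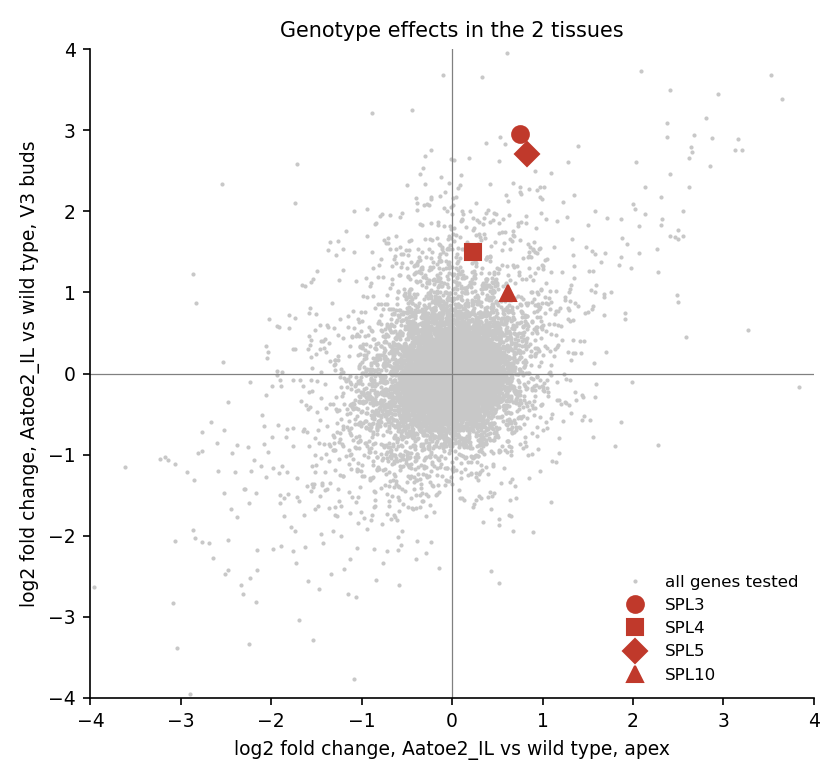
Log2 fold change of Aatoe2_IL over wild type in V3 buds (y axis) against that in apices (x axis) for all genes tested (grey points), with the 4 SPL genes in red. Both axes run from -4 to 4 and leave out 20 genes; SPL3 (0.75 in apices, 2.95 in buds) and SPL5 (0.83 and 2.71) lie near each other, and SPL4 and SPL10 lie lower.

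Tissues were compared within each genotype, and because bud libraries took part in the choice of the genes these values too carry no test. Wild-type V3 buds held less of SPL4, SPL5 and SPL10 than wild-type apices did. The log2 fold changes were -3.78 (SE 0.29), -3.39 (SE 0.26) and -1.41 (SE 0.16) in that order, with no overlap between the tissues, a pattern shared by 14.2% of all genes. SPL3 had a log2 fold change of -0.86 (SE 0.46) with touching ranges. Without wild-type bud replicate 1 these values were -1.41 for SPL3 and -4.43 for SPL4, and without replicate 3 that of SPL3 was -0.51. In Aatoe2_IL the same 3 genes were lower in buds, by smaller amounts, at -2.51 for SPL4 (SE 0.25), -1.51 for SPL5 (SE 0.23) and -1.03 for SPL10 (SE 0.15), again without overlap, as in 10.8% of all genes. SPL3 was higher in Aatoe2_IL buds than in Aatoe2_IL apices, with a log2 fold change of 1.33 (SE 0.34) and no overlap, as in 11.9% of all genes.

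Set against the wild-type apex, Aatoe2_IL buds held 74.9% of the SPL10 level, 62.4% of the SPL5 level and 20.5% of the SPL4 level. Wild-type buds held 37.6% of the wild-type apex level for SPL10, 9.52% for SPL5 and 7.25% for SPL4. For SPL3 the mean of Aatoe2_IL buds was 432% of the wild-type apex mean, and that of wild-type buds was 54.8%. SPL4 thus stood far below its apex level in the buds of both genotypes, whereas SPL5 in Aatoe2_IL buds overlapped the wild-type apex range.

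Ratios of read counts between these genes within a library do not depend on scaling, and between groups the gene lengths cancel. SPL5 gave 3.73, 3.53 and 3.49 reads per SPL10 read in Aatoe2_IL apices, against 3.92, 2.35 and 2.95 in wild-type apices, with overlapping ranges. In V3 buds SPL5 gave 2, 3.12 and 2.46 reads per SPL10 read in Aatoe2_IL, against 0.770, 0.930 and 0.642 in wild type. The balance of SPL5 and SPL10 reads in wild-type buds therefore stood apart from the other 3 groups. The ratio of SPL5 to SPL4 reads was 12.9 ± 1.10 in Aatoe2_IL buds and 6.61 ± 2.38 in wild-type buds, and in apices 6.49 ± 1.02 in Aatoe2_IL and 4.29 ± 0.28 in wild type (SD, n = 3 each), without overlap between the genotypes in either tissue. Of these ratios, those in buds rest on the contrast that chose the genes. The share of gene pairs with such separations was not counted in either tissue, so the ratios are given as a description.

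Within groups, single libraries stood out for several of the genes at once. Aatoe2_IL bud replicate 2 had the highest SPL4, SPL5 and SPL10 levels of its group and the lowest SPL3 level. Wild-type bud replicate 1 was the highest of its group for all 4 genes, and wild-type apex replicate 2 was the lowest of its group for SPL4, SPL5 and SPL10, for the last by a narrow margin. The SD of log2 CPM within groups was 0.47 for SPL3, 0.46 for SPL4, 0.37 for SPL5 and 0.22 for SPL10, against a median of 0.18 over all genes tested, so that 90.6% of all genes varied less than SPL3 and 90.3% less than SPL4. These shares compare genes of unlike read count, and the part of counting noise in the SD was not tested.

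The share of reads counted outside genes moved with SPL4 and SPL5 within groups. In all 4 groups the library with the highest such share also had the highest SPL4 and the highest SPL5 level, which held for 7.18% of all genes tested. Those libraries were replicate 2 in both tissues of Aatoe2_IL and replicate 1 in both tissues of wild type. Buds and apices paired in part by replicate number, so the 4 groups are not 4 separate cases. The part of this share in the results was not tested beyond the covariate fit given here. For SPL10 the library with the highest share had the highest level in 3 groups, where 22.7% of all genes did so in 3 or 4, and for SPL3 in 2. The share was 18.3 ± 2.38% for Aatoe2_IL apices and 15.5 ± 2.91% for wild-type apices, and 17.2 ± 1.83% in Aatoe2_IL buds and 16.9 ± 4.03% in wild-type buds (SD, n = 3 each). With this share as a covariate the apex log2 fold changes were 0.55 for SPL5, 0.46 for SPL10, 0.70 for SPL3 and -0.0100 for SPL4, and the bud values were 2.70, 0.99, 2.96 and 1.52.

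**Figure D4:**
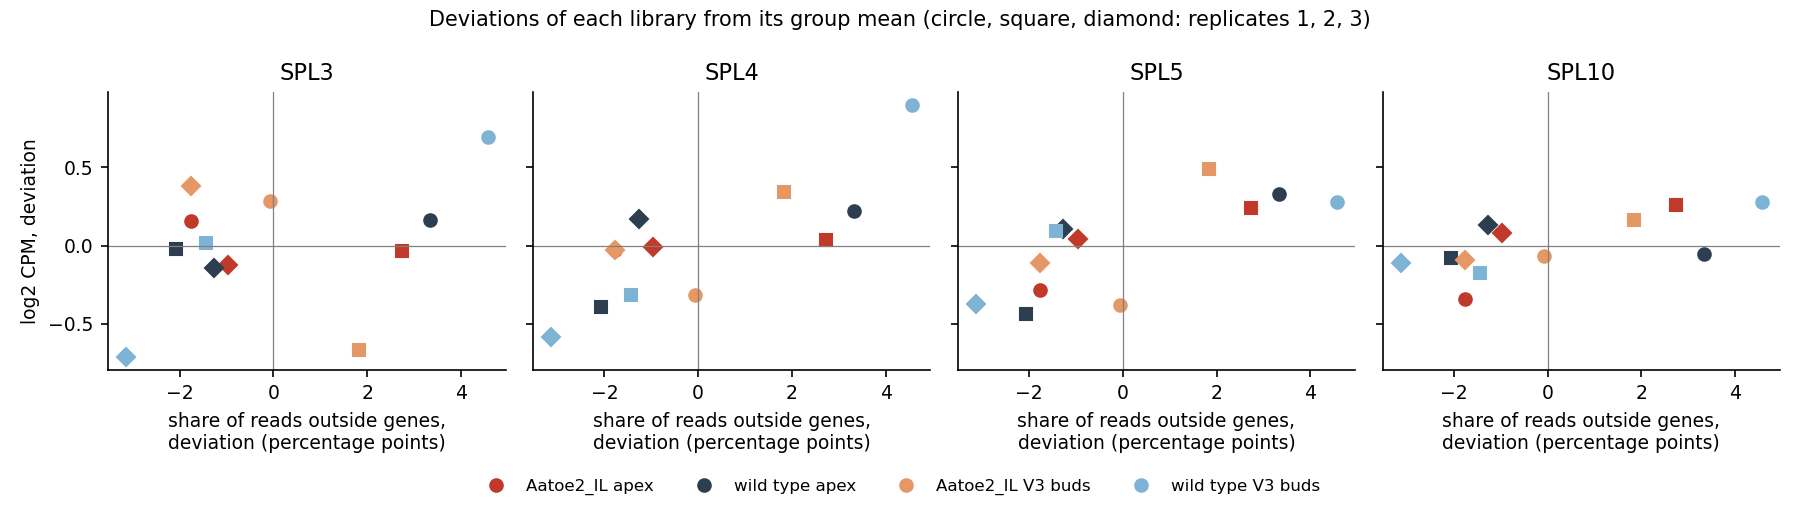
Deviation of log2 CPM from the group mean (y axis) against deviation of the share of reads outside genes from the group mean in percentage points (x axis), for each SPL gene in the 12 libraries. Colours are the 4 groups and circles, squares and diamonds are replicates 1, 2 and 3; wild-type bud replicate 1, with 21.5% of reads outside genes, lies at the upper right for all 4 genes.

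The genes whose pattern over the 12 libraries was most like each SPL gene were sought among the 437 other tested genes with an Arabidopsis name in the deposited lists. The 12 libraries fall into 4 groups, and Pearson's r of log2 CPM is given as a description of likeness that largely follows the group means. For SPL5 they were TOE3, an APETALA2-like gene (r = 0.974), DOT5, a zinc finger gene (r = 0.971), and AGL6, a MADS-box gene (r = 0.969). For SPL10 they were TOE3 (r = 0.974), AT3G05110 (r = 0.969) and DOT5 (r = 0.966). SPL4 was most like AT3G05110 (r = 0.982), AT3G12710 (r = 0.979) and AT2G14060 (r = 0.968). SPL3 was most like AT5G16030 (r = 0.917), the anion transporter gene CLC-A (r = 0.903) and AT1G22430 (r = 0.895). All of these genes stood in the deposited list of genes higher in Aatoe2_IL buds, so that a shared rise in buds is part of how their names came to be known.

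In apices TOE3 had 14.6 ± 5.18 CPM (Aatoe2_IL) and 10.8 ± 2.04 CPM (wild type), and in buds 5.96 ± 1.11 CPM (Aatoe2_IL) and 2 ± 0.67 CPM (wild type) (SD, n = 3 each). AGL6 and DOT5 had 3 and 4 counts in all in wild-type buds, so their low end rests on few reads. Among all 19519 other genes, SPL10 ranked 5 by likeness to SPL5, and SPL5 ranked 6 by likeness to SPL10, whereas SPL3 ranked 2619 by likeness to SPL5.

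**Figure D5:**
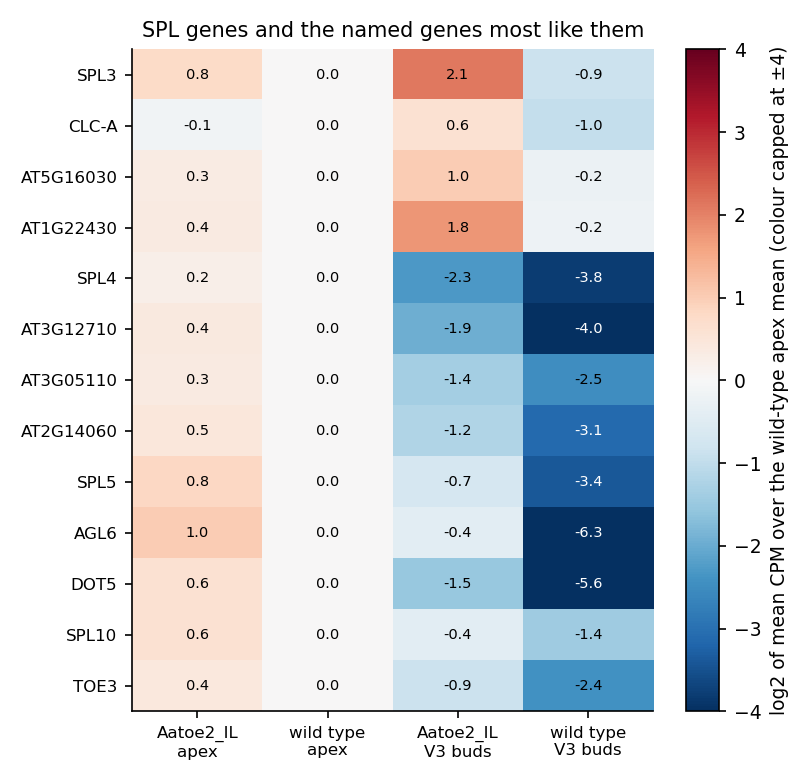
Log2 ratio of the group mean in CPM to the wild-type apex mean for the 4 SPL genes and the named genes most like them, by group (colour capped at 4 in each direction, the value printed in each cell). SPL3, CLC-A, AT5G16030 and AT1G22430 are highest in Aatoe2_IL buds, and the other genes are highest in Aatoe2_IL apices and lowest in wild-type buds.

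Other genes of flowering were taken from 5 lists with 51 members, covering APETALA2-like genes, floral integrators and meristem identity, floral organs, repressors and vernalization, and gibberellin, of which 9 had a name in the files. The names exist because the authors listed these genes on the same samples, so their counts are not independent evidence of a direction. SHP2, AP1 and AGL6 stood in the deposited list of genes higher in Aatoe2_IL apices, AGL6 also in the bud list. Their apex tests below therefore repeat the contrast that named them and cannot count as evidence of a rise. In Aatoe2_IL apices 1 of the 9 rose, 0 fell and 8 were not past edgeR's threshold, in a contrast where 1.1% of all genes passed. The one that rose was SHP2, which acts in the carpel, with 1.47 ± 0.40 CPM in Aatoe2_IL and 0.25 ± 0.22 CPM in wild type (log2 fold change 2.49, SE 0.53, edgeR adjusted p = 0.0381). That call was lost in a fit of apex libraries alone, with the covariate, and without wild-type apex replicate 1 or 2 or Aatoe2_IL apex replicate 2 or 3, and the log2 fold change was 3.45 without wild-type apex replicate 3. AP1, a gene of floral meristem identity that SPL proteins activate in Arabidopsis, had 3.03 ± 1.18 CPM in Aatoe2_IL apices and 1.01 ± 0.44 CPM in wild-type apices (log2 fold change 1.56, SE 0.46, edgeR adjusted p = 0.124). TOE3 had a log2 fold change of 0.43 there (edgeR adjusted p = 0.414), AGL6 one of 0.99 (edgeR adjusted p = 0.281, and 0.00797 to 0.753 over the alternatives, with 0.0481 without Aatoe2_IL apex replicate 1), and CRC, a gene of carpels and nectaries, one of 0.51 (edgeR adjusted p = 0.175, and 0.045 to 0.533 over the alternatives). UFO, an F-box gene of floral patterning, had one of 0.34 (edgeR adjusted p = 0.378).

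In Aatoe2_IL buds 3 of the same 9 genes rose, 3 fell and 3 were not past the threshold, in a contrast where 4.95% of all genes passed in either direction. Every gene that passed stood in a deposited list made from this contrast, so nothing can be read from these counts or p-values beyond a description. TOE3 rose (log2 fold change 1.57, SE 0.32, edgeR adjusted p = 0.0114, but 0.0551 without wild-type bud replicate 2), and so did CRC (log2 fold change 1.85, SE 0.21, edgeR adjusted p = 0.00028). AGL6 rose too, with 178 counts in Aatoe2_IL buds and 3 in wild-type buds. UFO fell, with 8.87 ± 1.98 CPM in Aatoe2_IL buds and 31.8 ± 3.29 CPM in wild-type buds (SD, n = 3 each). AP1 had 1 count in Aatoe2_IL buds and 2 in wild-type buds in all, and no fold is given. SHP2 (0.452 CPM in Aatoe2_IL buds and 0.238 CPM in wild-type buds on average) was not past the threshold.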

How the data were processed

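Poly(A) RNA of 12 samples was sequenced with a strand-specific kit as single reads, per the labels' protocols. The authors deposited whole-number read counts per gene. STAR, HTSeq 0.5.4p1, DESeq and DESeq2 are named in the submitters' processing notes without roles; the genome build, annotation and strand setting are not given in the sources used here, and overlapping genes are therefore uncertain. The deposited lists hold, per the file headers, genes past an absolute fold of 2 whose adjusted p-value lies below 0.05. Their signal columns are group means of normalized counts by the authors; means for 732 of 732 entries matched the deposited counts divided by size factors within 0.5% or the rounding of the printed value. Their fold is the ratio of these means, and the deposited log2 column is its logarithm.

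The 5 counter entries, for reads not assigned to a gene, were left out of the gene counts. The share of reads outside genes is the counter of reads in no gene over the sum of that counter, ambiguous reads and reads in genes. All 12 libraries entered 1 fit in edgeR 4.0.16 (R 4.3.3, quasi-likelihood test, TMM, default low-count filter, Benjamini-Hochberg over 19520 genes). The fit was run on simulated data with absolute log2 fold changes of 1 and 2, which are larger than the SPL values in the apex. SE is the absolute log2 fold change over the square root of F. Log2 CPM used a prior count of 2. DESeq2 1.42.0, other scalings, no filter, a replicate block, a covariate and left-out libraries were alternatives. The 4 genes, the lists and Aatoe2_IL replicate 1 as a library to leave out were chosen with earlier results of these data known. All 4 genes are named, with listed genes that have a name and the 3 most alike. Correlations of deviations from group means between buds and apices of the same replicate number were 0.415, 0.32 and 0.239 in Aatoe2_IL. In wild type they were 0.355, 0.0622 and 0.248. Different numbers gave at most 0.056 in Aatoe2_IL and 0.144 in wild type. Between genotypes the same numbers gave -0.285 to 0.0998. Buds and apices thus paired by number in Aatoe2_IL and in part in wild type, which the main fit left out.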

Additional observations from a re-analysis of the deposited data

How the results depend on the processing

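In the apex, the direction held for SPL3, SPL5 and SPL10 under every alternative run and for SPL4 under all but 1, the covariate fit on reads outside genes, where it was -0.0100; the cause was not tested. SPL5 and SPL10 passed the threshold in the apex, giving 2 of the 4 genes, with DESeq2 (log2 fold changes 0.84 and 0.62), with no low-count filter (0.83 and 0.62) and without both Aatoe2_IL replicate 1 libraries (0.96 and 0.77). Leaving out 1 apex library gave between 0 and 2 genes past the threshold, and log2 fold changes of 0.66 to 0.86 for SPL3, 0.075 to 0.34 for SPL4, 0.65 to 1.00 for SPL5 and 0.48 to 0.77 for SPL10. In buds, leaving out 1 library gave 2.6 to 3.5 for SPL3, 1.22 to 2.15 for SPL4, 2.43 to 2.89 for SPL5 and 0.91 to 1.15 for SPL10. Of the 4 genes, 3 were past the threshold without wild-type bud replicate 2 or 3 or Aatoe2_IL bud replicate 2, and 4 without any other bud library. With bud libraries alone 3 were past it. The bud contrast chose these genes, so nothing can be read from how many passed. Over all genes, 215 passed in the apex and 967 in buds. The apex count was 596 with DESeq2, 400 with no filter, 129 with apex libraries alone, 835 without both Aatoe2_IL replicate 1 libraries and 35 to 698 without 1 library. The bud count was 621 with bud libraries alone, 2134 with the covariate and 410 to 1017 without 1 library. With the replicate number as a block, 0 of 4 genes passed in the apex (SPL5 0.81, edgeR adjusted p = 0.0935; SPL10 0.61, edgeR adjusted p = 0.0605), 314 genes passed there and 1365 in buds, and no SPL apex call and no SPL direction changed; the block within genotype moved no tissue value by more than the spread between replicates. GA2OX4, a listed gibberellin gene, was at -0.32 in the apex and between -0.76 and 0.0043 without 1 apex library, the last without Aatoe2_IL apex replicate 2. By Spearman's rho, with the 4 SPL genes left out, TOE3 headed the named genes in likeness to SPL5 (rho = 0.965). TOE3 was level with AT2G14060 in likeness to SPL4 (rho = 0.972), and DOT5 led for SPL10 (rho = 0.986). For SPL3 the leading gene was NSH3 (rho = 0.937). CLC-A and AT5G16030 were then not among the 3 genes most like SPL3, nor was AGL6 among those most like SPL5. Counts limit SPL3 most, with 3 to 11 reads per wild-type bud library.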

Other observations

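Both named gibberellin genes of the gibberellin list were lower in Aatoe2_IL buds, the contrast for which the authors listed them. VIN3 and DRM2, given below, stood in the deposited list of genes higher in Aatoe2_IL buds, so their direction there came with the naming. GA20OX2, which acts in gibberellin synthesis, had 2.55 ± 0.62 CPM in Aatoe2_IL buds and 11.4 ± 1.01 CPM in wild-type buds (log2 fold change -2.16, SE 0.26, edgeR adjusted p = 0.000354, n = 3 each). GA2OX4, which acts in gibberellin breakdown, had 2.77 ± 0.43 CPM in Aatoe2_IL buds and 8.32 ± 1.57 CPM in wild-type buds (edgeR adjusted p = 0.0133, 0.0695 when wild-type bud replicate 2 was left out and 0.0702 when Aatoe2_IL bud replicate 3 was). In apices neither was past the threshold (edgeR adjusted p = 0.186 and 0.699). VIN3, which is induced by cold and acts in vernalization in Arabidopsis, had 20.5 ± 14.2 CPM in Aatoe2_IL buds and 6.95 ± 1.13 CPM in wild-type buds (edgeR adjusted p = 0.0618), and its adjusted p ranged from 0.00119 to 0.329 over the alternatives. Its log2 fold change of 1.56 was 0.92 without Aatoe2_IL bud replicate 3 (edgeR adjusted p = 0.329) and 1.96 without Aatoe2_IL bud replicate 1 (edgeR adjusted p = 0.007). DRM2, a dormancy-associated gene and the 1 of 4 axillary bud markers with a name, had 374 ± 174 CPM in Aatoe2_IL buds and 173 ± 31.1 CPM in wild-type buds (edgeR adjusted p = 0.0748, and between 0.0317 and 0.363 over the alternatives, the highest without Aatoe2_IL bud replicate 3).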
